A study of Mus musculus with 6 samples.

Results

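The ABC (ATP-binding cassette) genes of the mouse kidney were followed here. They were taken as every symbol in the count table that starts with Abc, a family letter from a to g and a digit, which gave 50 genes of 24422 symbols. Fold changes are given for the 44 genes with 60 or more reads summed over 6 libraries. Of the other 6, Abca14 had 28 reads, Abcb11 had 13, Abcc12 had 5, Abca12 had 4 and Abca15 had 1. Abca16 had 0 reads, which sets an upper bound of about 3 on its expected reads in all.

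The libraries were made from poly-A RNA of whole C57BL/6 kidneys at postnatal day 13, from mice on a diet with 220 ppm iron. The 3 Control libraries carry the genotype label wild type. The study likewise describes its controls for RNA sequencing as wild type littermates. In another experiment it uses WT for TfR1f/f littermates, so the exact Control genotype is unsure. The 3 libraries labelled TfR1KO;Six2Cre, called knockout below, came from Tfr1f/f;SixCre mice, in which exons 3 and 4 of the transferrin receptor gene are floxed. Six2CreEGFP acts in nephron progenitors, so the collecting duct, vessels and stroma keep the gene, and some nephron cells escape deletion. Library totals ran from 16591156 to 22898008 reads assigned to genes. All values below are normalized counts, the raw counts divided by DESeq2 size factors.

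ABC proteins are built from membrane-spanning segments and cassettes that bind and split ATP. Most members push a substrate across a membrane, out of the cell or into an organelle. Tubule cells of the proximal nephron use members of the B, C and G families to pass drugs and conjugated organic anions into the urine. Many members of the A family, with some of the G family, move cholesterol and phospholipids. A few B-family members sit in mitochondria, where they are tied to heme and iron-sulfur metabolism, and the D family mostly serves the peroxisome. The E and F families have cassettes but no membrane segment and work on ribosomes.

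The targeted gene, Tfrc, had 5534, 6485 and 3667 normalized counts in Control 1 to 3 and 6976, 4045 and 5898 in knockout 1 to 3. The groups overlapped, and the log2 fold change was 0.11 with a standard error (SE) of 0.29 and an adjusted p of 0.853. Counts per gene pool the deleted exons with all others and the deleted cells with all others, so they do not check the genotype labels.

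Markers of tubule segments moved strongly. All 6 markers of the thick ascending limb and all 3 of the distal convoluted tubule were lower in knockout kidneys, and their summed levels did not overlap. The thick limb sum ran from 49316 to 114914 normalized counts in Control and from 14285 to 26141 in knockout. The distal convoluted tubule sum ran from 11272 to 22529 in Control and from 736 to 1783 in knockout. Of 6 collecting duct markers, 4 were higher, with sums of 7914 to 14642 in Control and 31726 to 64078 in knockout. Of 10 proximal tubule markers, Lrp2 and Slc5a2 were lower and none was higher, and the sums overlapped at 128372 to 213445 in Control and 136110 to 240131 in knockout. The table held 8 macrophage markers, of which 5 were higher, with sums of 2695 to 4514 in Control and 6048 to 9196 in knockout. Podocyte and endothelial lists had 1 higher gene each, the erythroid list had 1 lower gene, and the mural and stromal list had none. In RNA of a whole organ, fewer cells of a type and less RNA per cell cannot be told apart, and the part of cell makeup in the results below was not tested.

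A pair of libraries also held transcripts of the adrenal gland, which lies on top of the kidney. The sum of 11 adrenal cortex and medulla genes, chosen after values were seen, was 30506, 298 and 283 normalized counts in Control 1 to 3, and 190, 416 and 3995 in knockout 1 to 3. Star, which brings cholesterol into steroid-making mitochondria, alone had 9334 counts in Control 1 and 1049 in knockout 3, against 134 to 351 in the other 4 libraries. Each count below was therefore also computed without Control 1 and knockout 3.

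Across all genes, DESeq2 called 7.74% of the 16509 genes tested higher and 7.18% lower in knockout kidneys at an adjusted p under 0.05. Those genes had a mean count of at least 3.508, while the ABC genes had to hold 60 or more reads. Shares of members and of all genes therefore rest on unlike filters. The reads were summed over both groups, and Abcb5, Abcg5 and Abcg8 passed only through the group where each was higher. Of the 44 ABC genes, 8 were higher (18.2%) and 5 were lower (11.4%), while 31 were not called. With a 2-fold change required as well, 4 were higher, against 4.41% of all genes, and 5 were lower, against 4.46%. By edgeR, whose quasi-likelihood test called 3.22% of genes higher and 2.80% lower, 3 were higher and 4 were lower. With 200 or more reads required in the main test, 7 were higher and 3 were lower. Fewer members pass that minimum, and the share of all genes called at it was not computed. Without the libraries with adrenal transcripts, which leaves 2 a group, 3 were higher (Abcc2, Abca7 and Abcb1b) and 3 were lower (Abca13, Abca4 and Abcc6). The share of all genes called in that fit was not computed, so these counts have no background share beside them. The other 8 of the 13 called genes kept their direction there, with adjusted p-values from 0.0661 to 0.351. The libraries of both groups did not overlap for 12 genes higher in knockout and 5 lower, 27.3% and 11.4% of the members, where 16.9% of all genes did not overlap with knockout higher and 16.9% with knockout lower. The median log2 fold change was 0.14 over the 44 members and 0.01 over all genes. With libraries scaled by total counts the median over all genes shifted by -0.10 on the log2 scale, and Abcb1a and Abca3 were no longer called. All 50 members were matched to the annotation of mm9, the mouse build the files use.

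**Figure D1:**
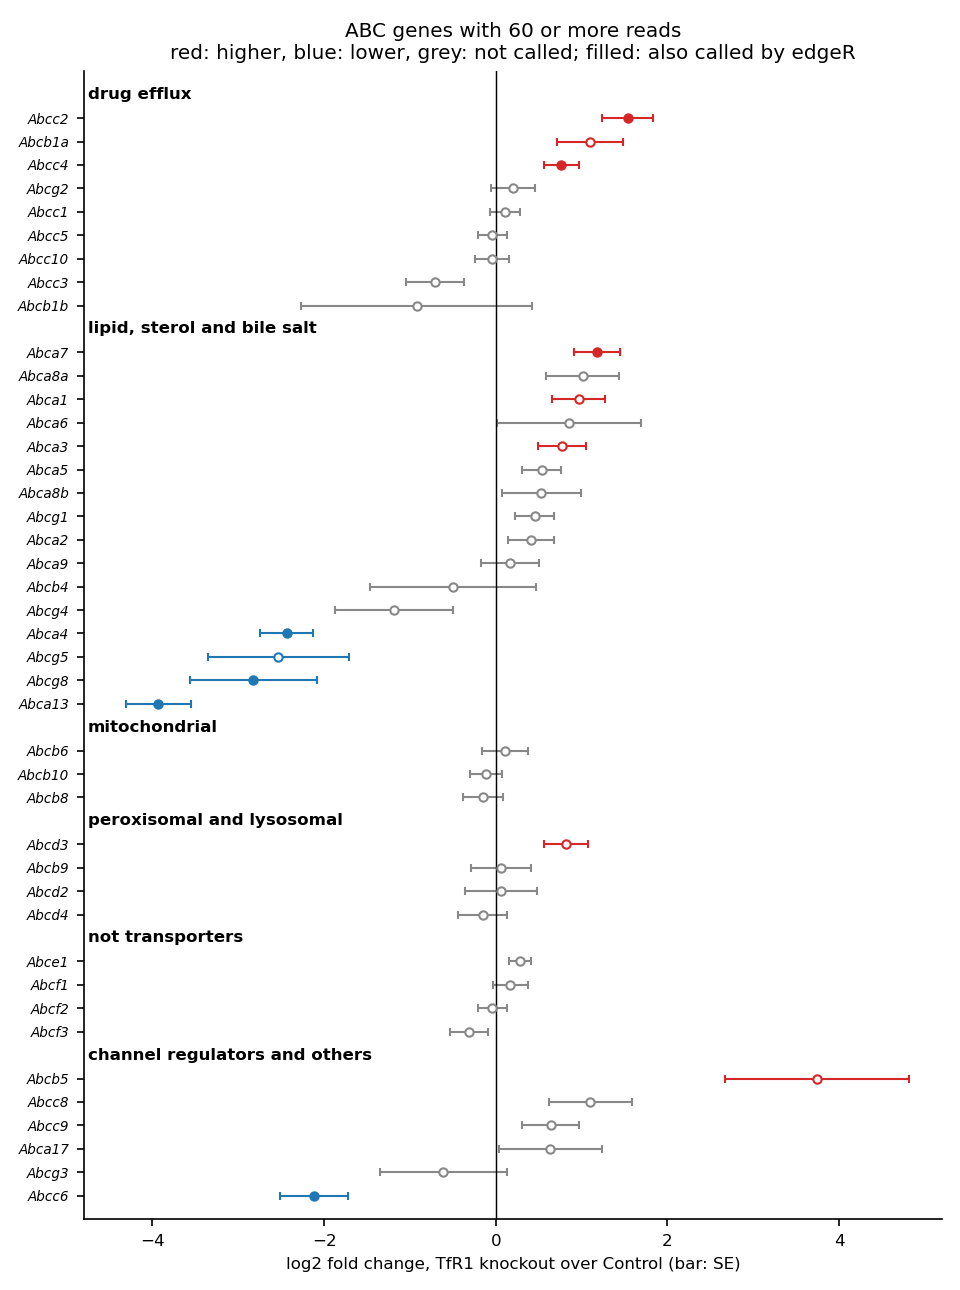
Log2 fold change of knockout over Control (x axis) for 42 of the 44 ABC genes with 60 or more reads, in 6 groups by function; bars are SE from DESeq2, red marks the 8 higher and blue the 5 lower genes, and filled points were also called by edgeR. Drug efflux calls are all on the higher side, the lipid group has calls on both sides between -3.93 and 1.18, and the mitochondrial points lie between -0.14 and 0.11.

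Drug efflux members were described first. Of 9 genes, 3 were higher in knockout kidneys, 0 were lower and 6 were not called, with a median log2 fold change of 0.11. That is 33.3% higher, where 7.74% of all genes were higher and 7.18% lower, in a group of 9. Without both libraries with adrenal transcripts 2 were higher, since Abcb1a and Abcc4 lost their calls and Abcb1b gained one. The largest rise was in Abcc2 (Mrp2), an apical pump for conjugated organic anions, at chr19:43856682-43912441 on the plus strand. It had 1191, 774 and 574 normalized counts in Control 1 to 3 and 2304, 2912 and 2169 in knockout 1 to 3, so that each knockout library exceeded each Control library. Means were 847 ± 315 (SD, n = 3) and 2462 ± 396 (SD, n = 3), a 2.91-fold difference (log2 fold change 1.54, SE 0.30, adjusted p 9.88e-06 by DESeq2 and 0.0236 by edgeR). The call was kept with any 1 of the 6 libraries left out, with log2 fold changes from 1.32 to 1.86, and without both libraries with adrenal transcripts (1.95).

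Abcc4 (Mrp4), an apical exporter of cyclic nucleotides, urate and antiviral drugs, lies at chr14:118881914-119105441 on the minus strand. Its counts were 815, 737 and 617 in Control and 1101, 1429 and 1163 in knockout, with no overlap. The rise was 1.70-fold, from 723 ± 100 to 1231 ± 174 (SD, n = 3 each), with a log2 fold change of 0.77 (SE 0.20, adjusted p 0.00222 by DESeq2 and 0.0397 by edgeR). It was called with any 1 library left out, but not in the 4 libraries without adrenal transcripts, where the log2 fold change was 0.90 with an adjusted p of 0.176.

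The mouse has a pair of genes, Abcb1a and Abcb1b, for P-glycoprotein, the broad pump of hydrophobic drugs. They lie side by side on the plus strand of chromosome 5, Abcb1a at chr5:8660077-8748575 and Abcb1b at chr5:8798147-8866314. Their coding sequences are 3831 bases each and 87.7% identical, with a longest identical run of 338 bases. A stretch of 72 coding bases around the ATP-binding Walker A loop of the first cassette is shown because it bears on how reads are assigned. It differs at 1 base, in capitals, so a read that lies wholly inside it has at most that base to tell the genes apart.
Abcb1a, coding bases 1243 to 1314: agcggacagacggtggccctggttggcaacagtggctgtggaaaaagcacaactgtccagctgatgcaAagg
Abcb1b, coding bases 1252 to 1323: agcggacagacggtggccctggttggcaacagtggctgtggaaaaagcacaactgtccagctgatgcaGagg
Over the whole transcripts, 7.72% of 100-base windows of Abcb1a and 8.65% of those of Abcb1b were found without mismatch in another gene, those of Abcb1a in Abcb1b or Abcb4 and those of Abcb1b in Abcb1a. With 50-base windows, 16.98% of those of Abcb1a and 18.14% of those of Abcb1b were found in another gene. The authors kept uniquely mapped reads, so reads that match both genes equally add to neither.

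Abcb1a had 77.5, 31.8 and 49.5 normalized counts in Control 1 to 3 and 113, 116 and 112 in knockout 1 to 3. The knockout libraries were close to each other and above every Control library. The mean rose 2.14-fold, from 52.9 ± 23.0 to 114 ± 2.43 (SD, n = 3 each; log2 fold change 1.10, SE 0.38, adjusted p 0.0313), but edgeR gave 0.115. The call was kept without Control 1 (adjusted p 0.00567) and lost when any other library was left out, at 0.188 without Control 2, 0.108 without Control 3, 0.0751 without knockout 1, 0.112 without knockout 2 and 0.137 without knockout 3. The log2 fold change stayed between 0.83 and 1.49.

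Abcb1b was not called, and 1 library set its direction. It had 1108, 55.4 and 65.7 normalized counts in Control 1 to 3 and 90.5, 389 and 169 in knockout 1 to 3. Control 1, the library with the highest adrenal sum, was far above all others, and the 3 knockout values lay above those of Control 2 and Control 3. With all 6 libraries the log2 fold change was -0.92 (SE 1.35, adjusted p 0.709). Without Control 1 it was 1.83 (adjusted p 0.0322), without Control 1 and knockout 3 it was 1.98 (adjusted p 0.0448), and with the log of the adrenal sum as a covariate it was 1.13 (adjusted p 0.291). Knockout 2, the next highest library, had an adrenal sum of 416. The part of adrenal RNA in the level of Abcb1b was not tested further.

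**Figure D2:**
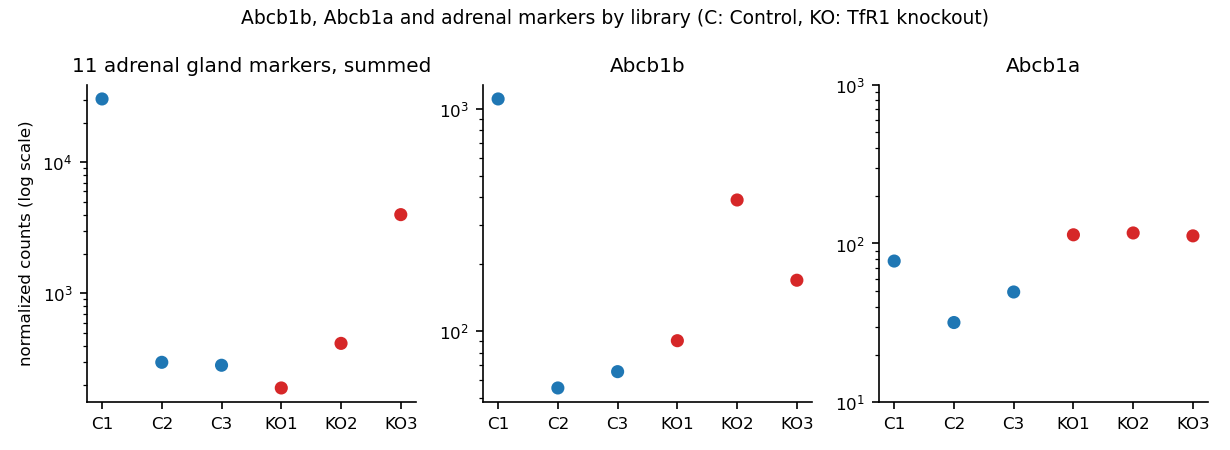
Normalized counts (log scale) of the summed adrenal markers, Abcb1b and Abcb1a in each library, with Control replicates C1 to C3 in blue and knockout replicates KO1 to KO3 in red. C1 is highest for the adrenal sum (30506) and for Abcb1b (1108), while Abcb1a in C1 (77.5) is below all 3 knockout libraries.

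The remaining drug efflux members did not pass the test. Abcg2 (Bcrp), an apical urate and drug pump and the most abundant of the group, had 4314, 4190 and 4037 normalized counts in Control and 3446, 6470 and 4502 in knockout. The knockout values lay on both sides of the Control values (log2 fold change 0.20, SE 0.26, adjusted p 0.659). Abcc3 (Mrp3), a basolateral exporter of glucuronides, had 891, 1080 and 459 in Control and 553, 394 and 541 in knockout. Its log2 fold change was -0.71 (SE 0.34, adjusted p 0.149), and Control 3 was inside the knockout range. Without Control 3 it was -0.99 with an adjusted p of 0.000818. With any other single library left out Abcc3 was not called (adjusted p 0.140 to 0.534).

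Abcc1 (Mrp1), a widely expressed exporter of glutathione conjugates, had 1228, 1405 and 1196 normalized counts in Control and 1556, 1347 and 1234 in knockout (log2 fold change 0.11, SE 0.17). Abcc5 (Mrp5), which exports cyclic nucleotides, had 1460, 1439 and 1593 against 1276, 1640 and 1461 (-0.04, SE 0.17). Abcc10 (Mrp7) had 482, 559 and 513 against 592, 444 and 470 (-0.04, SE 0.20). These 3 genes overlapped between groups, with adjusted p-values from 0.729 to 0.915.

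Promoter matches to the antioxidant response element, the site bound by Nrf2, were looked up because Abcc2 and Abcc4 are textbook genes of that factor. The letters TGACNNNGC were searched on both strands of RefSeq promoters (GRCm38.p6, 250 bases before to 50 after a start). They occurred in 12.4% of 32851 promoters and in 5 of 38 ABC genes with a promoter in the table. The 12.4% is per promoter, while a gene with several promoters was counted if any of them held a match. The gene counts here are therefore not directly comparable with it. Of 7 drug efflux genes with a promoter, Abcc2, Abcc4, Abcb1a and Abcc10 held a match and Abcb1b, Abcg2 and Abcc5 did not. The matches before a RefSeq start are shown in capitals with 10 bases on each side, 5′ to 3′ on the strand of the gene, placed on mm9 by exact match. RefSeq starts differ from those of the mm9 annotation, by which the Abcc2, Abcc10 and second Abcc4 stretches lie inside the gene.
Abcc2, chr19:43856690-43856718, plus strand: ctcactgggaTGACATAGCattcatctag
Abcc4, chr14:119105448-119105476, minus strand: gccccgagagGCGGGGTCAgggcgggccg
Abcc4, second start, chr14:119076158-119076186, minus strand: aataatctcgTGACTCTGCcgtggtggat
Abcc10, chr17:46465157-46465185, minus strand: cgcagcacccTGACCTGGCagcgcgtcct
The first Abcc4 match is on the opposite strand, so its letters read as the reverse complement. Abcc10, which held a match, was not called, and the letters are a description of these windows and not of binding.

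Lipid, sterol and bile salt members moved in both directions. Of 16 genes described, 3 were higher (18.8%), 4 were lower (25.0%) and 9 were not called. Over all genes, 7.74% were higher and 7.18% lower. Of the 4 lower genes, Abcg5 and Abcg8 passed the read minimum only through Control, so the 25.0% rests in part on that filter. Without both libraries with adrenal transcripts 1 was higher (Abca7) and 2 were lower (Abca13 and Abca4). The median log2 fold change was 0.43, against 0.01 over all genes. The 18 genes of the group include Abca12 and the bile salt pump Abcb11, which had too few reads.

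Abca13 had the largest fall of the 44 members described. It encodes a very long A-family protein of lipid transport and lies at chr11:9091945-9584262. Its counts were 3893, 3696 and 2090 in Control 1 to 3 and 239, 284 and 114 in knockout 1 to 3. The lowest Control library was far above the highest knockout library. The level fell 15.2-fold, from 3226 ± 989 to 212 ± 88.3 (SD, n = 3 each; log2 fold change -3.93, SE 0.38, adjusted p 8.21e-23 by DESeq2 and 0.00393 by edgeR). It was called under each alternative that was run, with log2 fold changes from -4.19 to -3.62 when 1 library was left out.

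Abca4, known as the retinoid flippase of photoreceptors, was also lower. Its normalized counts were 277, 331 and 268 in Control and 43.8, 78.0 and 41.6 in knockout, with no overlap. It fell 5.42-fold (log2 fold change -2.44, SE 0.31, adjusted p 9.16e-13 by DESeq2 and 0.00694 by edgeR), and the call was kept with each library left out. The thick limb and distal tubule marker sums given above were lower in the same libraries, and their part in the fall of Abca13 and Abca4 was not tested.

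Abcg5 and Abcg8 each encode a part of the same pump, which returns sterols to bile and gut. They are transcribed away from each other on chromosome 17. The farthest annotated start of Abcg5 and the nearest Abcg8 start beyond it are 109 bases apart, while 1 other Abcg8 transcript starts at position 85075642, inside Abcg5. The span is shown because both genes fell. Matches to the GATA box (AGATAA, either strand) are in capitals.
Between these starts of Abcg5 and Abcg8, mm9 chr17:85082352-85082460, plus strand: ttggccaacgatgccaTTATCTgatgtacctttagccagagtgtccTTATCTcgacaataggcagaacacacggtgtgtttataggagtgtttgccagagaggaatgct
It held 2 matches. Of the 109-base windows before RefSeq starts, 3.98% held 1 or more and 0.186% held 2 or more. The motif was picked with the results known.

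Abcg8 had 24.7, 23.6 and 27.99 normalized counts in Control and 4.97, 5.12 and 0.946 in knockout, with no overlap. It fell 7.09-fold (log2 fold change -2.83, SE 0.74, adjusted p 0.00227 by DESeq2 and 0.0305 by edgeR). Abcg5 had 15.7, 16.4 and 44.1 in Control and 1.99, 7.68 and 3.78 in knockout, again with no overlap. It fell 5.78-fold (log2 fold change -2.53, SE 0.82, adjusted p 0.0196 by DESeq2 and 0.0669 by edgeR). Both were near the limit of what this depth can show, with 92 and 90 reads in all. Most of those reads came from Control, so both genes passed the read minimum only through the group where they were higher. Abcg8 was called with any 1 library left out but not without both libraries with adrenal transcripts (log2 fold change -2.36, adjusted p 0.351). Abcg5 was called without knockout 2 (0.0159) and lost its call without Control 1 (0.0527), Control 2 (0.0567), Control 3 (0.209), knockout 1 (0.0669) or knockout 3 (0.106). The first exon of the Abcg8 transcript that starts inside Abcg5 overlaps Abcg5 exons by 82 bases on the opposite strand, where reads could be assigned to either gene if the counting did not use strand.

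The higher lipid members were Abca7, Abca1 and Abca3. Abca7, a phospholipid exporter linked to phagocytosis, had 737, 730 and 553 normalized counts in Control and 1125, 1997 and 1465 in knockout. The groups were well apart. The rise was 2.27-fold (log2 fold change 1.18, SE 0.27, adjusted p 0.000228 by DESeq2 and 0.0305 by edgeR), and it was called with any 1 library left out.

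Abca1, the exporter that loads cholesterol onto apolipoprotein A1, had 1767, 1183 and 2293 in Control and 2471, 4251 and 3540 in knockout. The lowest knockout library was just above the highest Control library. The rise was 1.96-fold (log2 fold change 0.97, SE 0.31, adjusted p 0.0165), and edgeR did not call it (0.0922). The call was lost without Control 1 (0.0927), Control 2 (0.125), knockout 2 (0.103) or knockout 3 (0.0947).

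Abca3, known for packing surfactant lipid into lamellar bodies of the lung, had 3392, 3539 and 1788 in Control and 5002, 5445 and 4452 in knockout. The rise was 1.71-fold with an adjusted p of 0.0463, close to the threshold (log2 fold change 0.77, SE 0.29, and 0.123 by edgeR). It was lost without Control 1 (0.0796), knockout 1 (0.0862), knockout 2 (0.158) or knockout 3 (0.101). Macrophages are known to use Abca1 and Abca7. The macrophage marker sums given above were higher in each knockout library than in each Control library, and their part in these rises was not tested.

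**Figure D3:**
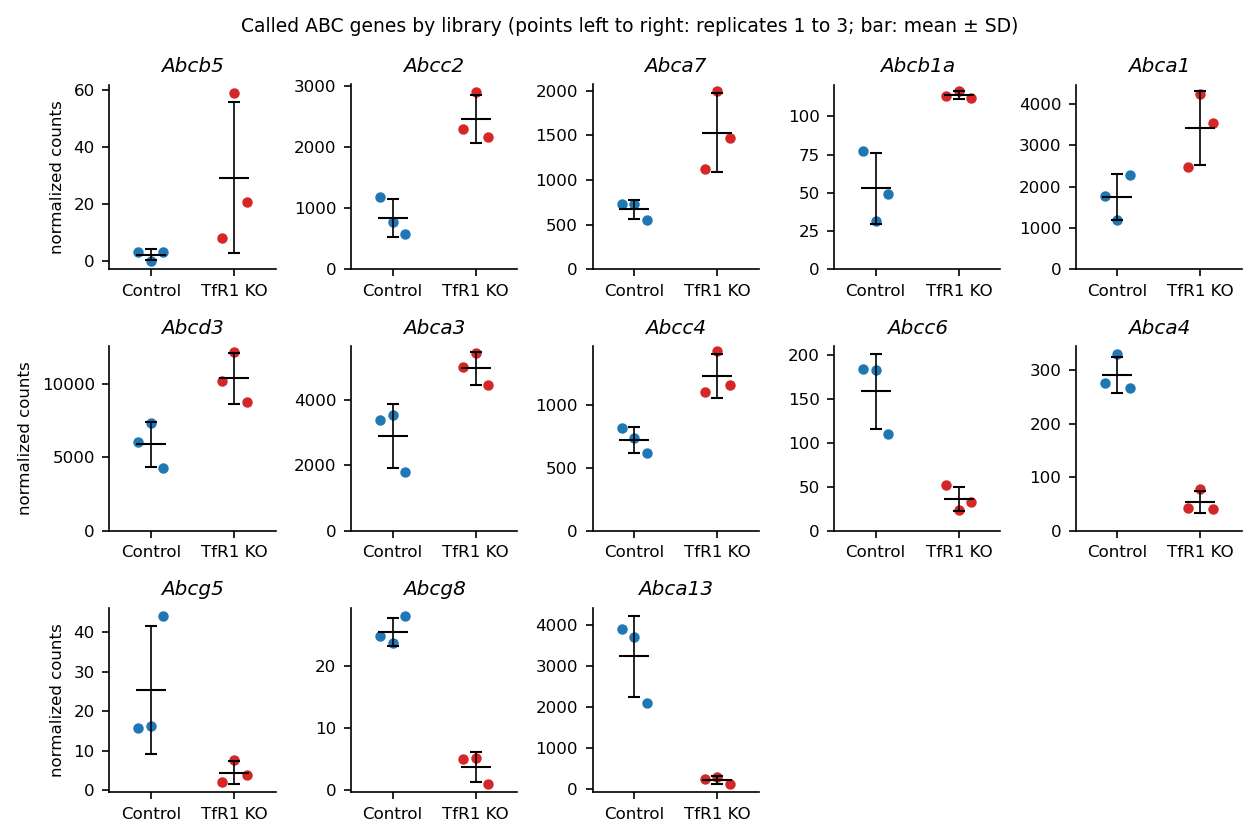
Normalized counts (y axis, linear) of the 13 called ABC genes, in order of log2 fold change, in the Control (blue) and knockout (red) libraries; points are replicates 1 to 3 from left to right and black bars are the mean ± SD. The groups do not overlap in any panel, and the spread among knockout libraries is widest relative to the mean in Abcb5 (7.96, 58.9 and 20.8).

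Among the 9 lipid members not called, 1 library again set several values. Abca8a, of the A-family cluster on chromosome 11, had 214, 159 and 509 normalized counts in Control and 465, 684 and 630 in knockout. Its log2 fold change was 1.02 (SE 0.43, adjusted p 0.0895), and 1.67 without Control 3 (adjusted p 1.72e-07), the Control library inside the knockout range. With any other single library left out Abca8a was not called (adjusted p 0.0677 to 0.347). Abca6, of the same cluster, had 33.8, 32.7 and 195 in Control and 26.8, 287 and 157 in knockout. It went from 0.85 (adjusted p 0.549) to 2.23 (adjusted p 0.0384) without Control 3. With any other single library left out Abca6 was not called (adjusted p 0.208 to 0.976). Control 3 also had the highest mural and stromal marker sum, 46091 against 21978 to 30217 in the other 5 libraries, and the part of that was not tested.

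Abcg1, which exports cholesterol to lipoprotein particles, had 469, 379 and 409 in Control and 446, 635 and 646 in knockout. It was not called with all libraries (log2 fold change 0.46, adjusted p 0.168) and was called without knockout 1 (adjusted p 0.0235). Abca5, a lysosomal lipid transporter, had 378, 370 and 424 against 453, 708 and 539 (log2 fold change 0.54, adjusted p 0.0987, and 0.0241 without knockout 1). The groups did not overlap for Abca5. With any single library other than knockout 1 left out neither gene was called. Adjusted p-values there were 0.283 to 0.491 for Abcg1 and 0.118 to 0.355 for Abca5. Of the other 5 lipid members, Abca2, Abca8b and Abca9 had positive and Abcb4 and Abcg4 negative log2 fold changes, from -1.19 to 0.53, and their adjusted p-values ran from 0.260 to 0.799.

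Mitochondrial members were not called. DESeq2, edgeR and limma-voom called 0 of 4, and 0 of 4 had an unadjusted p under 0.05 by DESeq2 or by edgeR. Over all genes DESeq2 called 14.9% in either direction, so 0 calls in a group of 4 do not set these genes apart. Abcb10, which is needed for heme synthesis in red cell precursors, had 801, 864 and 738 normalized counts in Control and 811, 626 and 789 in knockout (log2 fold change -0.11, SE 0.18).

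Abcb6, named for porphyrin transport, had 956, 1033 and 570.5 in Control and 801, 953 and 1003 in knockout (0.11, SE 0.27). Abcb8, part of a mitochondrial potassium channel, had 1305, 1479 and 941 against 1299, 983 and 1088 (-0.14, SE 0.24). Libraries of both groups overlapped for Abcb6, Abcb8 and Abcb10. The SE values of 0.18 to 0.27 set the size of change that 3 libraries a group could show.

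Peroxisomal and lysosomal members held 1 call among 5, where 14.9% of all genes were called in either direction. Abcd3 (Pmp70), which brings long-chain acyl groups into the peroxisome, had the most reads of all members. Its counts were 6029, 7334 and 4272 in Control and 10172, 12174 and 8737 in knockout, with no overlap. The rise was 1.76-fold (log2 fold change 0.82, SE 0.25, adjusted p 0.0130 by DESeq2 and 0.0876 by edgeR). The call was lost without Control 1 (0.0836), knockout 2 (0.0782) or both libraries with adrenal transcripts (0.162). Abcd2, Abcd4 and Abcb9, which serve the peroxisome or the lysosome, were not called, with log2 fold changes from -0.15 to 0.06 and adjusted p-values from 0.777 to 0.952.

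The 4 members that are not transporters were not called either. DESeq2 called 0 of 4, with 1 unadjusted p under 0.05, and edgeR called 0 of 4, with 0 unadjusted p under 0.05. With 14.9% of all genes called by DESeq2 in either direction, 0 of 4 does not set this group apart. Abce1, a ribosome recycling factor that itself holds iron-sulfur clusters, had 2328, 2191 and 2133 normalized counts in Control and 2765, 2614 and 2687 in knockout. All 3 knockout libraries were above all 3 Control libraries, with a small spread in each group (log2 fold change 0.28, SE 0.13, adjusted p 0.129). Abcf1, Abcf2 and Abcf3, which act on translation and its stress response, overlapped between groups, with log2 fold changes from -0.31 to 0.17.

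Of 6 channel regulators and other members described, 1 was higher (Abcb5) and 1 was lower (Abcc6). Over all genes, 7.74% were higher and 7.18% lower. Abcb5 passed the read minimum only through knockout, so its call cannot be set against that share. Without both libraries with adrenal transcripts 0 were higher and 1 was lower. Abcc6, whose loss is known to cause soft tissue calcification through low pyrophosphate, had 184, 183 and 110 normalized counts in Control and 51.7, 24.3 and 33.1 in knockout. The groups did not overlap. It fell 4.34-fold (log2 fold change -2.12, SE 0.39, adjusted p 3.43e-06 by DESeq2 and 0.0235 by edgeR), and was called with each library left out.

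Abcb5, best known from melanocytes and the limbus of the eye, had 3.30, 0 and 3.23 in Control and 7.96, 58.9 and 20.8 in knockout. Its mean went from 2.18 ± 1.88 to 29.2 ± 26.5 (SD, n = 3 each; log2 fold change 3.75, SE 1.07, adjusted p 0.00635). It had 83 reads in all, mostly from knockout libraries, so it passed the read minimum only through the group where it was higher. It was left out by the count minimum used with edgeR. Its call was also lost when at least 10 counts in 3 libraries were required. Without knockout 2 the call was lost (log2 fold change 2.74, adjusted p 0.175), as it was without both libraries with adrenal transcripts (4.42, adjusted p 0.0661).

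The sulfonylurea receptors Abcc8 and Abcc9 are regulators of potassium channels that sense ATP. Abcc8 had 13.2, 16.4 and 16.1 normalized counts in Control and 24.9, 42.2 and 31.2 in knockout, with no overlap, but was not called (log2 fold change 1.10, SE 0.49, adjusted p 0.110). Abcc9 had 366, 334 and 659 in Control and 515, 779 and 820 in knockout (0.64, SE 0.33, adjusted p 0.190). Without Control 3, whose stromal sum was highest, it was called (adjusted p 0.00385). With any other single library left out Abcc9 was not called (adjusted p 0.0756 to 0.533). Abca17 (0.63) and Abcg3 (-0.61) overlapped between groups.

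Levels of different genes were compared per length, as normalized counts per kilobase of exon. Abcd3 was first in both groups, at 1438 in Control and 2534 in knockout, followed by Abcg2 at 838 and 964 and Abce1 at 582 and 705. As a share of the summed level of all 50 members, Abcd3 took 18.3% ± 2.98 in Control and 25.5% ± 2.37 in knockout (SD, n = 3 each), and the ranges did not overlap. Abcc2 went from rank 16 to rank 7 of the members. Abca13 went from rank 14 to rank 34, from 163 to 10.7 counts per kilobase. Abcb1a, although higher, stayed low at 9.66 and 20.8 counts per kilobase.

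**Figure D4:**
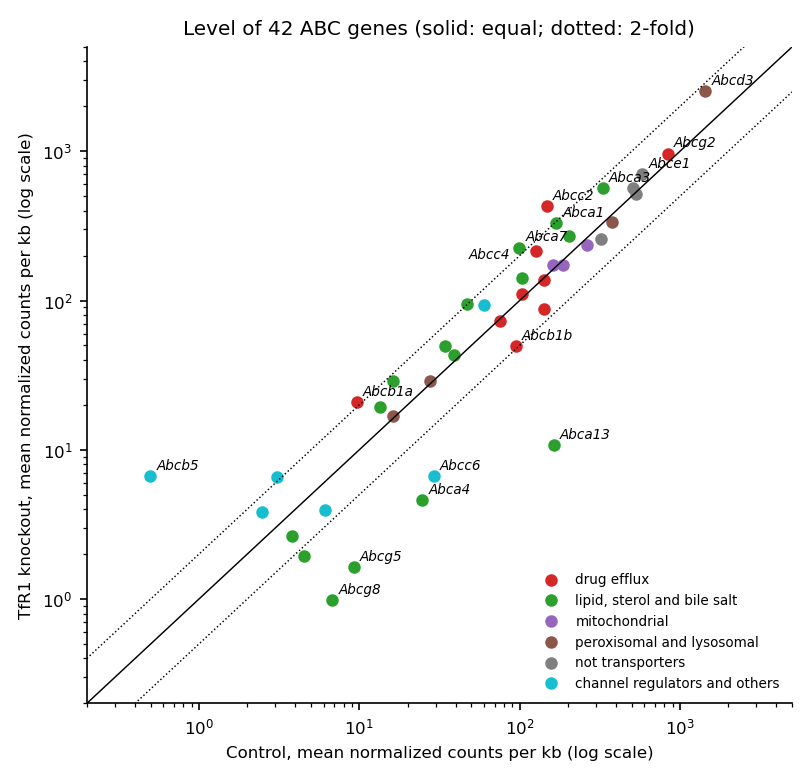
Mean normalized counts per kilobase of exon in Control (x axis) and knockout (y axis), both on log scales, for 42 of the 44 ABC genes coloured by group; the solid line marks equal levels and the dotted lines a 2-fold difference. Abcd3 (1438 and 2534) is at the top, Abca13 (163 and 10.7) lies farthest below the line among genes of middle level, and mitochondrial genes lie near it.

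Genes whose products work with ABC transporters were read from the same fit. Of 54 listed, 8 were higher and 2 were lower, 18.5% in all against 14.9% of all genes called in either direction. A 2-fold change was passed by 6, edgeR called Slc22a6 and Apom, and 5 were called without both libraries with adrenal transcripts. Among carriers of drugs, 1 of 8 was called. Slc22a6 (Oat1), which takes up organic anions on the blood side of the proximal tubule, had 3396, 3486 and 1198 normalized counts in Control and 10343, 10197 and 7422 in knockout. The groups were far apart (log2 fold change 1.79, SE 0.39, adjusted p 0.000105 by DESeq2 and 0.0441 by edgeR). Abcc2 and Abcc4 act on the urine side of the same cells.

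Among 9 genes of lipoproteins and sterol handling, 1 rose and 1 fell. Apom, a carrier of sphingosine phosphate on lipoproteins, had 1608, 1460 and 1840 in Control and 129, 138 and 47.3 in knockout (log2 fold change -3.97, SE 0.37, adjusted p 4.64e-24 by DESeq2 and 0.00384 by edgeR). Apoa1, the acceptor for Abca1, had 13.2, 1.82 and 1.08 in Control and 74.6, 229 and 19.9 in knockout (4.30, SE 0.98, adjusted p 0.000304 by DESeq2 and 0.0677 by edgeR). The groups did not overlap for either.

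Of 12 nuclear receptors and factors known to control ABC genes, 3 were higher and 0 were lower, where 7.74% of all genes were higher. The others were not called, among them Nr1h3 (log2 fold change -0.40, adjusted p 0.437 by DESeq2) and Rxra (0.09, adjusted p 0.810 by DESeq2). Ppara, the fatty acid receptor, had 1083, 1153 and 512 in Control and 1629, 5922 and 2092 in knockout (1.81, SE 0.49, adjusted p 0.00365 by DESeq2 and 0.0884 by edgeR). Nr1h2, the sterol receptor that drives Abca1 and Abcg1, and Nfe2l2, which encodes Nrf2, had log2 fold changes of 0.55 (adjusted p 0.0135) and 0.50 (adjusted p 0.0324). Neither call was made by edgeR (0.0607 and 0.0973). Nr1h2 lost its call without Control 1 (0.156), Control 2 (0.124) or knockout 3 (0.0766). Nfe2l2 lost it when any library other than knockout 1 was left out, at 0.102 to 0.164.

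Among the mitochondrial iron-sulfur and heme partners, Gfer, which oxidizes thiols between the mitochondrial membranes, was higher (0.65, adjusted p 0.0243). The call was lost when any library other than knockout 1 was left out, at 0.0722 to 0.15.

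Of the ABC proteins outside the name rule, Tap1, which loads peptides for antigen presentation, had 267, 235 and 348 in Control and 1129, 429 and 380 in knockout. The groups did not overlap, and knockout 1 was highest (1.19, SE 0.43, adjusted p 0.0396 by DESeq2 and 0.140 by edgeR). It was lost without Control 1 (0.165), Control 2 (0.192) or knockout 1 (0.171). Cftr and Tap2 were not called. The 2 potassium channel pores and the 5 genes of ribosome recycling and termination had no call by DESeq2 or edgeR. Over all genes DESeq2 called 14.9% in either direction, and these groups are small.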

How the data were processed

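Poly-A RNA of 6 whole kidneys (3 Control, 3 TfR1KO;Six2Cre) was sequenced as single reads. The authors demultiplexed with CASAVA 1.8.2, trimmed with Trimmomatic, aligned to mm9 with TopHat2 2.0.11 and counted uniquely mapped reads per gene with HTSeq, and deposited raw counts. Strand use in counting is not given in the sources used here. No columns were left without a sample. Counts were tested with DESeq2 1.42.0 (R 4.3.3), named in the study's methods: median-ratio size factors, Wald test, Benjamini-Hochberg adjustment over 16509 genes (mean count of at least 3.508), with 29 genes given no p as outliers. Genes were called at an adjusted p under 0.05. The tests edgeR 4.0.16 (quasi-likelihood) and limma 3.58.1 (voom) were alternatives, and the fitting was tested on simulated data. Members, gene lists and motifs were chosen with earlier results of these data known. Named are all symbols of the rule, values by library being given for called, drug efflux and mitochondrial members, and partners past 2-fold. Others named were chosen after their values were seen. The study gives 3 mice per model, and p-values measure the spread between these 3 libraries a group. Same-numbered libraries had deviations correlating at -0.04, 0.05 and 0.09 and were not paired. Some genes are not reported here.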

Additional observations from a re-analysis of the deposited data

How the results depend on the processing

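The 8 higher and 5 lower ABC calls became 3 and 4 with edgeR and with limma-voom (the same 7 genes of 13 with either), 4 higher with a 2-fold change or with an adjusted p under 0.01, 3 lower with 200 or more reads, and 3 and 3 without both libraries with adrenal transcripts, an alternative added after seeing the data that leaves 2 libraries a group. Leaving out 1 library gave 3 to 10 higher and 4 to 5 lower. The 10 partner calls became 2 with edgeR and with limma-voom, 5 without both libraries with adrenal transcripts, and 4 to 16 with 1 library left out. With a replicate block, there were 8 higher, 4 lower and 11 partner calls. Abcb1a (adjusted p 0.0554) and Abcg5 (0.0698) were lost there and Abca8a was gained. No called member changed direction in any alternative. Among genes not called, Abcb1b (main log2 fold change -0.92) was at 0.0221 with limma-voom, 0.60 with the replicate block, 1.98 without both libraries with adrenal transcripts and 1.13 with the adrenal covariate. Total-count scaling gave -0.0179 for Abcb9 and -0.0346 for Abcd2, and leaving out both libraries -0.10 for Abca9 and -0.39 for Abcd2. With 1 library left out, log2 fold changes that crossed 0 ran from -1.66 to 1.83 for Abcb1b, -0.179 to 0.0392 for Abcc10, -0.126 to 0.0502 for Abcc5, -0.0691 to 0.392 for Abcg2, -0.0256 to 0.579 for Abca9, -1.77 to 0.495 for Abcb4, -0.178 to 0.0016 for Abcb10, -0.117 to 0.261 for Abcb6, -0.200 to 0.232 for Abcb9, -0.203 to 0.418 for Abcd2, -0.481 to 0.015 for Abcd4, -0.101 to 0.0446 for Abcf2 and -1.005 to 0.0313 for Abcg3. The cause was not tested. Genes with about 90 reads, such as Abcg5, Abcg8 and Abcb5, are limited by depth.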
